A study of Mus musculus with 6 samples.

Results

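Stat3, Stat4, Stat5a, Stat5b and Stat6 encode the signal transducers through which most T helper cell cytokines act. These 5 genes were taken by symbol from the 41388 genes of the table, after Ensembl identifiers had been matched to mouse gene symbols, and all 5 passed the filter on low values. Each was compared between wild-type (WT) and Irf1-/- Th9 cells, and the levels of the 5 genes were set against one another.

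Cytokine receptors activate Janus kinases, which phosphorylate latent STAT proteins in the cytoplasm. The phosphorylated STATs pair and move to the nucleus, where they bind the palindromic GAS element in the regulatory regions of their target genes. In T helper cells STAT6 carries the signal of IL-4 and favours Th2 and Th9 genes, STAT5A and STAT5B carry that of IL-2, STAT3 that of IL-6, IL-21 and IL-10, and STAT4 that of IL-12 and so Th1 genes. Irf1 encodes a transcription factor of the interferon regulatory factor family that is induced by IFN-γ.

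The cells were T cells of C57BL/6 mice, taken from spleen and lymph nodes by magnetic negative selection. The methods describe naive CD4+ T cells activated through CD3 and CD28, from mice matched for sex and age. Sex-linked transcripts, however, differed between the libraries, as given below. The mice were 8 to 12 weeks old. Every culture ran for 2 days with IL-2, IL-4 and TGF-β, the Th9 conditions, and with IFN-γ at 5 ng per ml, so that no group lacked IFN-γ. The culture methods also list an antibody to mouse IFN-γ, and give the added IFN-γ as recombinant rat protein. There were 3 WT and 3 Irf1-/- samples, and the study describes them as independent biological samples. The labels call the knockout cells IRF1-deficient and the methods name Irf1-/- mice as their source, so that a change in T cells before culture cannot be told apart from one during culture.

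The libraries held between 5639788 and 13348230 reads on genes, and replicate 3 of each genotype was the deepest. Irf1 itself fell from 2845 ± 163 to 1662 ± 163 normalized counts (SD, n = 3 each). With 58.4% of the WT level left, the count over the whole gene does not show whether the deleted part was absent, and the position of that part is not given in the sources used here. Il9, the cytokine that defines Th9 cells, was between 852 and 1272 in WT and between 3201 and 3726 in Irf1-/- cells. Levels of 7 T cell markers, Il9 among them, summed to 10639 to 11085 in WT and 12000 to 13054 in Irf1-/- cells. Without Il9 the order turned, with sums of 9787 to 9812 in WT and 8799 to 9328 in Irf1-/- cells, and 2 of these 6 markers were called lower and 0 higher. Those of 2 CD8 T cell markers were 32.4 to 41.2 and 20.3 to 30.7. For 5 B cell markers the sums were 18.7 to 26.4 in WT and 21.7 to 37.4 in Irf1-/- cells, with Pax5 at 0, and for 5 NK cell markers 33.7 to 53.5 and 6.93 to 26.2, with Ncr1, Klrb1c and Klra8 at 0. The NK cell sum was mostly Eomes, which T cells can also express, at 33.7 to 51.0 in WT and 5.55 to 20.5 in Irf1-/- cells, while Klrd1 averaged 1.22 and 4.37. Those of 6 myeloid markers were 51.2 to 178 in WT and 41.5 to 232 in Irf1-/- cells except replicate 2, which had 1029. Transcripts of 4 Y-linked genes summed to 2301 and 2306 in WT replicates 1 and 2 and to at most 11.1 in the other 4 libraries, which held Xist at 16973 to 19403 against 2.50 and 6.01 in those WT replicates. By these markers WT replicates 1 and 2 were male and the other 4 libraries female, which differs from the methods. Sex is thus partly confounded with genotype, and its part in the differences was not tested. The members are therefore also given for the 4 libraries with Xist, 1 WT and 3 Irf1-/-, and from a fit that has the level of the Y-linked genes as a covariate, and the pathway genes whose calls were lost in those fits are named. Since Y-linked transcripts were high only in WT replicates 1 and 2, the covariate fit compares mostly WT replicate 3 with the Irf1-/- libraries. It is thus close to the fit on the 4 libraries and not a separate check.

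Stat5b, Stat5a and Stat3 lie next to one another on chromosome 11 (coordinates of GRCm38, GENCODE M21). Stat5b runs from 100780731 to 100850724 on the - strand, Stat5a from 100859351 to 100885169 on the + strand and Stat3 from 100885098 to 100939540 on the - strand. Stat5b and Stat5a are head to head with 8626 bases between them, while the 3′ ends of Stat5a and Stat3 overlap by 72 bases. Irf1, on the same chromosome, is 47.0 Mb away from Stat5b. Stat4 lies on chromosome 1 from 51987148 to 52107189 on the + strand, and Stat6 on chromosome 10 from 127642986 to 127660957 on the + strand.

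Sequence similarity bears on how far reads of the members can be told apart, and Stat5a and Stat5b are the closest pair. Cut into windows of 50 bases, near the length of a read, the transcripts of either gene share 608 windows, out of 7407 for Stat5a and out of 5535 for Stat5b. The longest run shared by the coding sequences is 324 bases, from coding base 571 to coding base 894 of either gene. The end of that run is shown for both genes with the bases that follow, since a read from it cannot be assigned to one of the genes by sequence. The stretch covers coding bases 820 to 969 (exons 7 and 8 of either gene, GRCm38 chr11:100874477-100875058 on the + strand for Stat5a and chr11:100797666-100798247 on the - strand for Stat5b), and the capital marks the base at which the genes differ, the only such base of 150.
Stat5a: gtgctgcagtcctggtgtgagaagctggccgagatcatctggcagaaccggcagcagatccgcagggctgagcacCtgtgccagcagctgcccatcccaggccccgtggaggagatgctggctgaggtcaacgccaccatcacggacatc
Stat5b: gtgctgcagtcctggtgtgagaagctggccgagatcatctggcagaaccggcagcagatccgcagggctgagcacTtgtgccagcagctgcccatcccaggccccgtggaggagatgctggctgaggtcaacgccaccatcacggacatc
Stat6 shared no window with another gene, and Stat3 shared 0.55% of its windows. Stat4 shared 21.7%, all with Gm28177, an annotated transcript that runs through exons of Stat4 and had at most 2.46 normalized counts in any library.

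Because Irf1 is the gene targeted in the knockout mice, the 250 bases before each annotated start of the members were searched for the IRF core AANNGAAA and for the GAS element TTCNNNGAA, on both strands. RefSeq gives 8 starts for the 5 genes. The IRF core was found before 3 of these 8 starts and before 21.3% of 32851 mouse starts, and the GAS element before none of the 8 and before 7.02% of all starts. The upstream sequence of Stat3, the member with the largest difference between genotypes, is shown in full because neither motif occurs in it (GRCm38.p6, chr11:100939541-100939790, - strand). For Stat4 and Stat6, the 100 bases before a start that hold a match are shown, from the later of the annotated Stat4 starts (chr1:52008140-52008239, + strand) and from the Stat6 start (chr10:127642886-127642985, + strand), with the matches in capitals.
Stat3: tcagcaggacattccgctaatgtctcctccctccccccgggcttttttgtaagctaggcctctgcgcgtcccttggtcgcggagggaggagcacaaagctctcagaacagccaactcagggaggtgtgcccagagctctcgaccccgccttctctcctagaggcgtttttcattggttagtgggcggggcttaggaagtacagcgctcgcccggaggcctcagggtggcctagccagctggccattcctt
Stat4: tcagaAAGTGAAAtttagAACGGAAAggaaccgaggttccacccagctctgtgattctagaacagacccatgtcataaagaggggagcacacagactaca
Stat6: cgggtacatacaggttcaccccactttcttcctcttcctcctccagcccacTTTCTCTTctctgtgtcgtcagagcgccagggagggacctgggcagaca
Stat4 held 2 matches that begin 95 and 82 bases before its start, Stat6 held 1 on the opposite strand that begins 49 bases before its start, and the later Stat5b start had 1 at 61 bases. A match to these letters is a description of the sequence only, and binding was not measured here.

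Stat3, which transmits IL-6, IL-21 and IL-10 signals, showed the largest difference of the members. Its normalized counts, which are reads divided by a size factor of the library, for replicates 1 to 3 were 3886, 4108 and 4461 in WT and 3131, 3109 and 3340 in Irf1-/- cells. Every Irf1-/- library was below every WT library. The WT mean of 4152 ± 290 compared with 3193 ± 127 in Irf1-/- cells (SD, n = 3 each), or 76.9% of the WT level. The log2 fold change was -0.38 (standard error 0.0607, 95% interval -0.51 to -0.24, adjusted p = 0.00167 in limma with Benjamini-Hochberg adjustment over 11379 genes). In these bulk cultures, fewer cells with Stat3 mRNA and less Stat3 mRNA per cell cannot be told apart. The paper found no significant effect of IRF1 deficiency on STAT3 or STAT5 phosphorylation in Th9 cells. Phosphorylated protein is another measure than mRNA, and neither STAT protein nor its phosphorylation is part of the data used here. Of the 6 T cell markers other than Il9, Cd3e at -0.30 and Trac at -0.32 were also called lower (adjusted p = 0.00535 and 0.00632 in limma), while Cd28 at -0.33, Cd4 at -0.10, Cd3g at 0.04 and Cd3d at 0.14 did not pass the threshold, and their part in the lower levels of Stat3 and Stat5a was not tested.

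The call for Stat3 held in all 19 alternatives with a test, and the log2 fold change stayed between -0.48 and -0.30. Without Irf1-/- replicate 2, the library with the most myeloid transcripts, it was -0.36 (adjusted p = 0.0121 in limma). It was -0.48 in the 4 libraries with Xist (adjusted p = 0.0065 in limma), -0.48 with the Y-linked covariate (adjusted p = 0.000227 in limma), -0.36 between the 4 smaller libraries and -0.42 between the 2 larger. Among the smaller libraries both WT samples had Y-linked transcripts and both Irf1-/- samples had Xist, so that genotype cannot be told apart from this difference there, while both larger libraries held Xist. The size of the change exceeded that of 79.6% of the genes tested.

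Stat5a, one of the STAT5 genes that respond to IL-2, was the other member called lower. It had 5298, 5393 and 5167 normalized counts in WT replicates 1 to 3 and 4576, 4425 and 4649 in Irf1-/- replicates 1 to 3. The groups did not overlap and the spread within each was narrow. The WT mean of 5286 ± 113 compared with 4550 ± 114 in Irf1-/- cells (SD, n = 3 each), 86.1% of the WT level. The log2 fold change was -0.22 (standard error 0.0475, 95% interval -0.32 to -0.11, adjusted p = 0.0087 in limma). This call depended on the libraries and the fit: the adjusted p in limma was 0.051 without WT replicate 2, 0.0553 when the variance was fitted with no trend on expression level and 0.186 in the 4 libraries with Xist, where the log2 fold change was -0.18. The fit with the Y-linked covariate, mostly the same contrast as the 4 libraries with Xist, gave -0.19 (adjusted p = 0.034 in limma). The difference was -0.25 between the 4 smaller libraries and -0.15 between the 2 larger.

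Stat5b, its close paralog, gave 3774, 3364 and 3629 normalized counts in WT replicates 1 to 3 and 3570, 3492 and 3758 in Irf1-/- replicates 1 to 3. The groups overlapped throughout, with means of 3589 ± 208 (SD, n = 3) and 3607 ± 137 (SD, n = 3). The log2 fold change was 0.01 (95% interval -0.12 to 0.13, adjusted p = 0.939 in limma), an interval that leaves room for a decrease of 7.89% or an increase of 9.79%. It was -0.0096 in the 4 libraries with Xist and -0.015 with the Y-linked covariate.

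Stat6, which transmits the IL-4 signal of the Th9 medium, varied least. Its normalized counts were 2502, 2499 and 2439 in WT replicates 1 to 3 and 2434, 2326 and 2384 in Irf1-/- replicates 1 to 3. The groups did not overlap, but the lowest WT library (2439) lay close to the highest Irf1-/- library (2434). Means were 2480 ± 35.6 (SD, n = 3) and 2382 ± 54.4 (SD, n = 3), and the log2 fold change of -0.06 (95% interval -0.17 to 0.05, adjusted p = 0.418 in limma) did not pass the threshold. The interval reaches from a decrease of 10.8% to an increase of 3.38%. The difference was -0.03 in the 4 libraries with Xist and -0.04 with the Y-linked covariate.

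Stat4, the transducer of IL-12 signals, was the least abundant member and varied more between replicates than between genotypes. It had 145, 165 and 229 normalized counts in WT replicates 1 to 3 and 146, 168 and 248 in Irf1-/- replicates 1 to 3, from 116 to 388 reads. Replicate 3 was the highest in both groups, 47.8% above the mean of the other replicates in WT and 58.2% above it in Irf1-/- cells. The means were 179 ± 43.8 (SD, n = 3) and 187 ± 53.8 (SD, n = 3), with a log2 fold change of 0.05 (95% interval -0.40 to 0.50, adjusted p = 0.890 in limma). The sign turned to -0.32 in the 4 libraries with Xist and to -0.30 with the Y-linked covariate, neither of them called. Counting error alone would give a coefficient of variation of 7.33% in either group, against observed values of 24.4% and 28.8%. Since replicate 3 was also the deepest library of each group, the part of depth or of the culture in this gap was not tested.

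**Figure D1:**
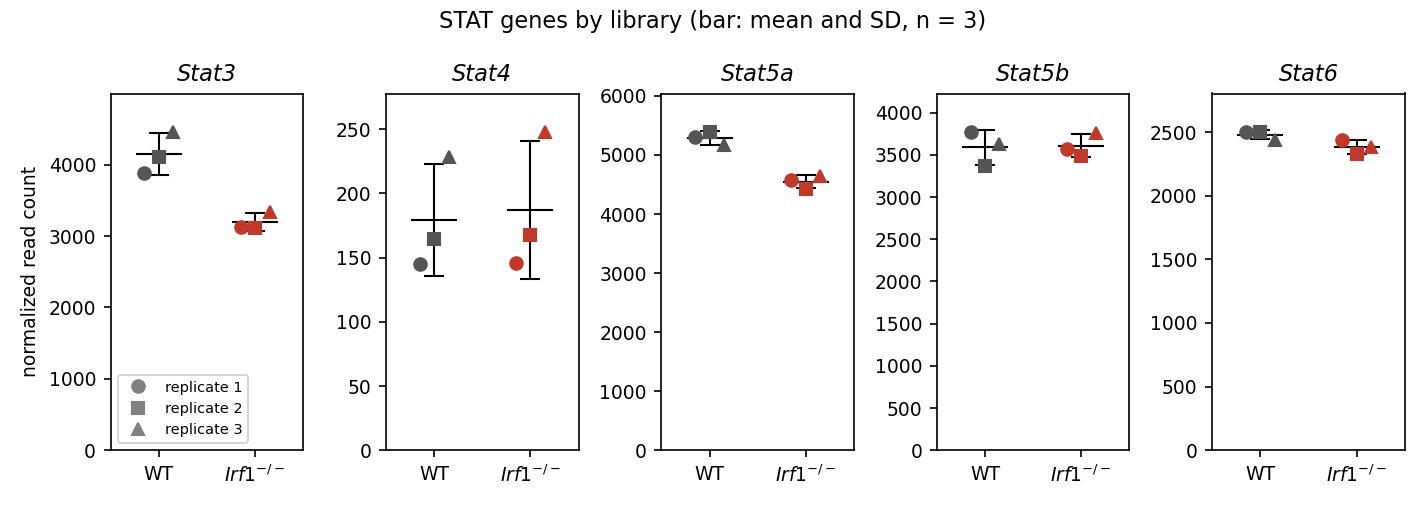
Normalized read count (vertical axis, from 0) of each STAT gene in the 3 WT and 3 Irf1-/- libraries, with symbols for the replicate number and bars for mean and SD. Stat3 and Stat5a are lower in all Irf1-/- libraries, and Stat4 is highest in replicate 3 of both groups.

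Over the members, 2 of 5 were called lower and 0 were called higher in limma, with 2 at an unadjusted p below 0.05. Among all 11379 genes tested, 12.4% were called lower, 11.4% higher and 23.7% in either direction. The same 2 genes were called by edgeR and by DESeq2 on the recovered reads, which called 23.5% and 17.6% of all genes. The median log2 fold change was -0.06 over the members and -0.0037 over all genes tested. Values did not overlap between the groups for Stat3, Stat5a and Stat6, all lower in Irf1-/- cells, and 20.9% of all genes tested were lower with no overlap. For each of these 3 genes the exact two-sided permutation test gave p = 0.1, the smallest that 3 against 3 samples allow.

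Outside the members, Stat2, which takes part in the response to type I interferon, had 522 ± 52.6 and 635 ± 83.4 normalized counts (SD, n = 3 each), a difference of 0.28 that did not pass the threshold (adjusted p = 0.0754 in limma). It passed under 3 alternatives, among them the fit without Irf1-/- replicate 1 (adjusted p = 0.0369 in limma).

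**Figure D2:**
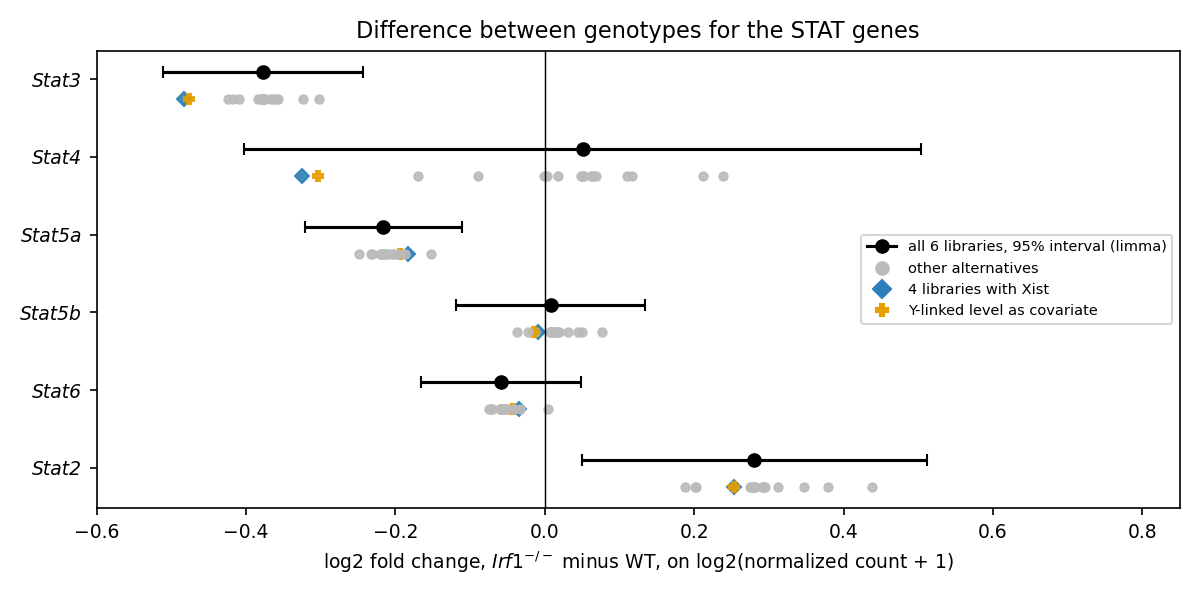
Log2 fold change of Irf1-/- against WT (horizontal axis) for the 5 members and for Stat2, with black points and 95% intervals from limma on all 6 libraries, and alternatives as grey, blue and orange symbols beneath. The intervals, which are not adjusted for the number of genes, lie below 0 for Stat3 and Stat5a and above 0 for Stat2, and the alternatives of Stat4 spread to both sides of 0, from -0.32 to 0.24.

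The genes on either side of the 3 STAT genes of chromosome 11 were looked up as well. Ghdc, the nearest tested gene beyond Stat5b, had a log2 fold change of 0.18 that did not pass the threshold, and Atp6v0a1, a subunit gene of the vacuolar proton pump beyond Stat3, rose by 0.42 (adjusted p = 0.0139 in limma). Gm24358, between Ghdc and Stat5b, and Cavin1, between Stat3 and Atp6v0a1, were too low to be tested.

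Ratios within a library do not depend on its size factor, and they were used to ask whether the members differed from one another in their response. The log2 ratio of Stat3 to Stat5b was 0.04, 0.29 and 0.30 in WT replicates 1 to 3 and -0.19, -0.17 and -0.17 in Irf1-/- replicates 1 to 3. Its mean went from 0.21 ± 0.145 (SD, n = 3) to -0.18 ± 0.0120 (SD, n = 3), so that there were more Stat3 than Stat5b reads in every WT library and fewer in every Irf1-/- library. The log2 ratio of Stat5a to Stat5b was 0.49, 0.68 and 0.51 in WT and 0.36, 0.34 and 0.31 in Irf1-/- cells, a difference of -0.22 between the paralogs. Differences between genotypes with no overlap were also found for Stat3 to Stat6 (-0.32), Stat3 to Stat5a (-0.16) and Stat5a to Stat6 (-0.16). Each of these 5 among 10 pairs reached p = 0.1 by exact two-sided permutation, a value that 3 against 3 cannot go below, and 0.2 after Benjamini-Hochberg adjustment, so that no pair could pass a threshold of 0.05. The ratio of Stat5b to Stat6 overlapped between the groups and differed by 0.07 (exact permutation p = 0.5).

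**Figure D3:**
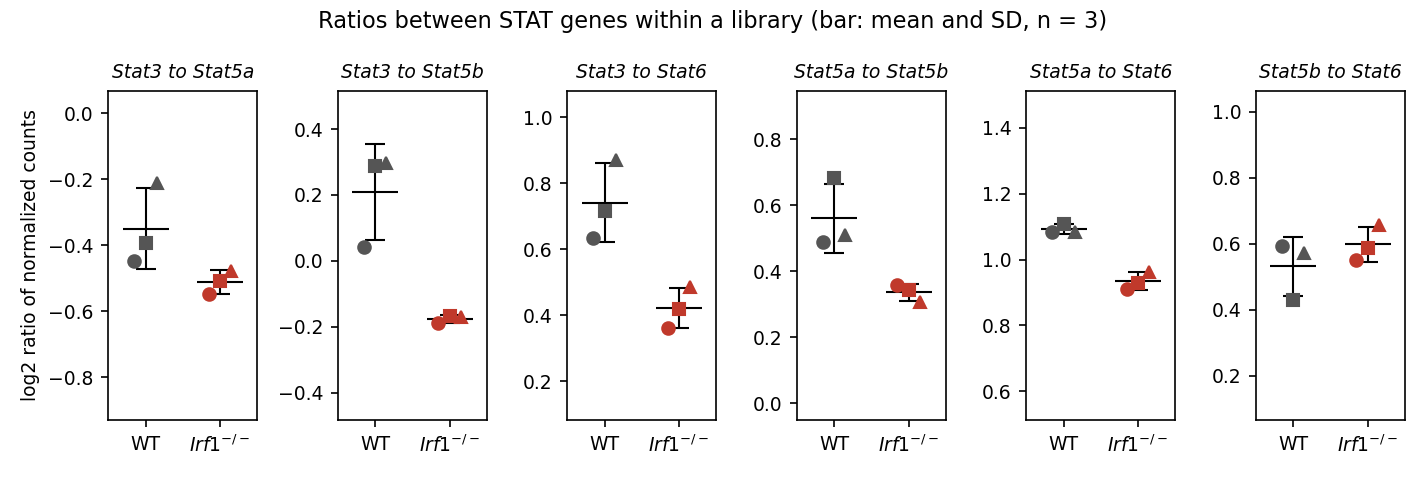
Log2 ratio of normalized counts (vertical axes, each spanning 1 log2 unit) for the 6 pairs without Stat4 in each library, with bars for mean and SD. All 5 pairs with Stat3 or Stat5a are lower in Irf1-/- cells without overlap, and Stat5b to Stat6 overlaps.

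For a comparison of levels between genes, the normalized counts were divided by the length of all exons of a gene merged over its transcripts. On this scale the mean over the 6 libraries was 689 ± 58.3 (SD, n = 6) normalized counts per kb for Stat5a, 650 ± 28.5 (SD, n = 6) for Stat5b, 552 ± 15.4 (SD, n = 6) for Stat6, 385 ± 59.0 (SD, n = 6) for Stat3 and 47.3 ± 11.4 (SD, n = 6) for Stat4. Stat4 was thus set apart from the other members, at the 41.5th percentile of 11327 tested genes with a length, while the other 4 were between the 90.3rd and the 95.8th. Per kb of merged exons the order of Stat5a and Stat5b turned with the genotype, which was not so for every length used. Stat5a was above Stat5b in 3 of 3 WT libraries, with means of 741 ± 15.9 and 648 ± 37.6, and below it in 3 of 3 Irf1-/- libraries, with means of 638 ± 16.0 and 651 ± 24.7 (SD, n = 3 each). Over all 6 libraries their log2 ratio per kb was 0.08 on average (exact sign-flip permutation p = 0.25), and the order within a genotype was not tested. Stat5b exceeded Stat6 by 1.18-fold, Stat6 exceeded Stat3 by 1.45-fold and Stat3 exceeded Stat4 by 8.25-fold, each in 6 of 6 libraries. Each of these 3 gave p = 0.0313 by exact two-sided sign-flip permutation, a value that 6 libraries cannot go below, or 0.0417 adjusted over 4 neighbouring pairs.

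The order and the gaps depended on the length that was used. Of the exon bases of Stat4, 26.7% are shared with Gm28177. Without bases shared with other genes, Stat3 exceeded Stat4 by 6.1-fold. Per kb of coding sequence, Stat5a led with 2057, followed by Stat3 with 1590, Stat5b with 1526, Stat6 with 968 and Stat4 with 81.7 normalized counts per kb. Stat3 thus moved above Stat6. Against Stat5b, it was higher in 3 of 3 WT libraries (means 1797 and 1522) and lower in 3 of 3 Irf1-/- libraries (means 1382 and 1530), so that the test over both genotypes (exact sign-flip permutation p = 0.594) pools orders that were opposite. In the means over 6 libraries Stat5a was first and Stat4 last with all 4 lengths used, but in Irf1-/- cells alone Stat5b was first per kb of merged exons, with or without the bases shared with other genes. Without those bases it led Stat5a in 2 of 3 Irf1-/- libraries (means 651 and 644). Stat5a stayed above Stat5b in 3 of 3 Irf1-/- libraries per kb of coding sequence (means 1903 and 1530) and of the longest transcript (means 1150 and 692).

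**Figure D4:**
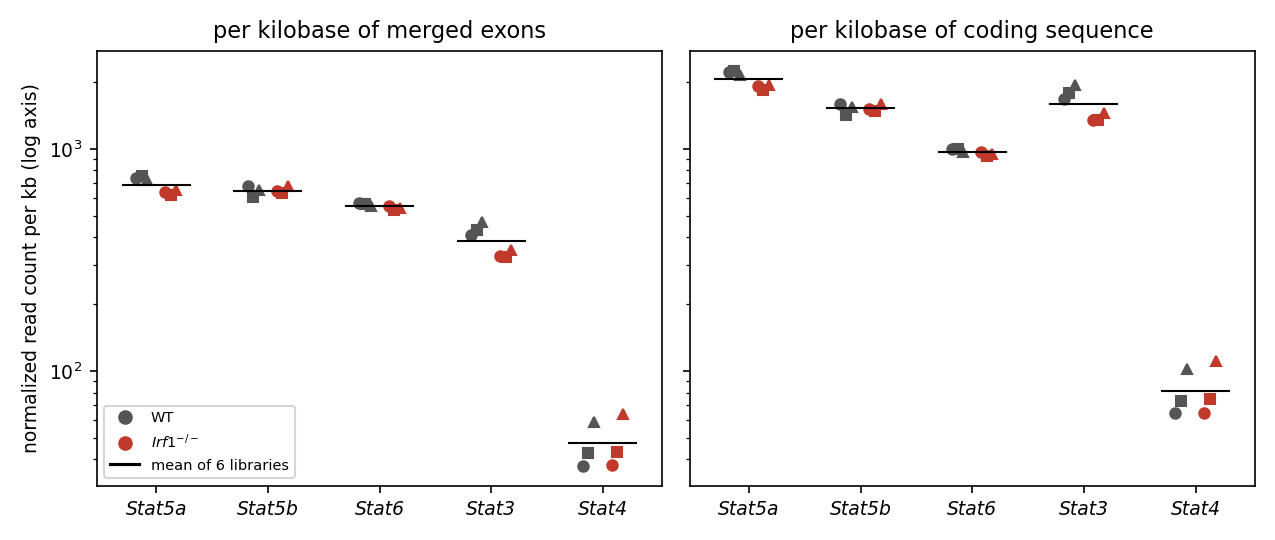
Normalized read count per kb (vertical log axis) of the STAT genes in each library, by merged exon length on the left and coding length on the right, with grey symbols for WT, red symbols for Irf1-/- and lines at the mean of 6 libraries. Stat4 lies far below the other genes on either scale, and Stat3 changes its place in the order.

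The genes whose levels followed a member most closely were found by Pearson's r of log2 values over the 6 libraries, which share genotype and depth. For Stat3 they were Tspan13 (r = 0.999), Ino80 and Rbm27, for Stat5a Hnrnpa3 (r = 0.999), Ubap2l and Thada, and for Stat6 Ubxn2b (r = 0.999), Cbwd1 and Hace1. Stat4 was closest to Kpna6 (r = 0.995), Suco and Tnik, and Stat5b to Ccdc173 (r = 0.974), Tefm and Rpusd4. An r of at least 0.95 was reached by 383 of 11378 genes for Stat5a, 295 for Stat3, 69 for Stat6, 44 for Stat4 and 7 for Stat5b. Log2 fold changes between genotypes were -0.31 for Tspan13, -0.09 for Ino80 and -0.34 for Rbm27, so that a high r did not mean a difference of the size seen for Stat3. They were -0.32 for Hnrnpa3, -0.29 for Ubap2l and -0.23 for Thada, the genes closest to Stat5a.

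The surrounding pathway was described with 7 lists of receptors, Janus kinases, inhibitors and targets of the STATs, 83 genes in all, of which 71 were tested and 7 belonged to more than 1 list. Of the 71, 16 were called lower and 18 higher in limma, 47.9% against 23.7% of all genes tested. The lists were chosen with earlier results of these data known, so that this difference in share is not a test of the pathway. For each list below, the shares of all genes tested to set beside it are 12.4% lower and 11.4% higher. In the 4 libraries with Xist 5 were lower and 9 higher, where 3.54% and 3.58% of all genes were. The numbers were 10 and 13 without WT replicate 1, against 7.23% and 7.15% of all genes, and 9 and 13 without WT replicate 2, against 7.24% and 7.07%. The calls of 12 genes, 4 lower and 8 higher, held in every alternative with a test, and these are given first in each list. Of the 34 called genes, 11 were not called with the Y-linked covariate (Il2rb, Il2rg, Il27ra, Socs2, Pias2, Bcl6, Tbx21, Bcl2l1, Prdm1, Il24 and Ccr8), and 20 of the 33 that could be tested in the 4 libraries with Xist were not called there. The sign stayed the same for every called gene in the fits that tested it, and the size moved by over 1.5 times for 9 genes with the covariate and for 11 in the 4 libraries. With 1 WT library, the fit on the 4 libraries has fewer samples, and the fit with the covariate rests mostly on the same contrast. A call lost in either at a similar log2 fold change does not show that the difference depends on the Xist or Y-linked transcripts. With the covariate Pias2 stood at -0.29 against -0.28 without it and Prdm1 at -1.55 against -1.33, while Il2rb went from 0.38 to 0.13.

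Among the receptors of cytokines that signal through these STATs, 5 of 15 tested genes were called lower and 3 higher, with a median log2 fold change of 0.17. Il15ra, the chain that binds IL-15, fell from 153 ± 13.5 (SD, n = 3) to 31.5 ± 7.38 (SD, n = 3) normalized counts (log2 fold change -2.27, adjusted p = 2.75e-05 in limma). Il12rb1, a chain of the IL-12 and IL-23 receptors upstream of STAT4 and STAT3, fell from 1339 ± 89.5 (SD, n = 3) to 550 ± 58.4 (SD, n = 3) (log2 fold change -1.29, adjusted p = 4.95e-06 in limma). The other 3 lower receptors were Il7r at -1.33, the common gamma chain Il2rg at -0.32 and Il21r at -0.30. Il4ra, the IL-4 receptor chain that recruits STAT6, was higher at 0.77 (adjusted p = 0.00569 in limma, and 0.15 in the 4 libraries with Xist), as were Il2rb at 0.38 and Il27ra at 0.22. In the 4 libraries with Xist, Il4ra was at 0.37 and Il2rb at 0.11, and the calls of Il2rg (-0.20), Il21r (-0.28), Il2rb and Il27ra (0.16) were lost there (adjusted p = 0.237, 0.0709, 0.581 and 0.368 in limma). Il6st, the chain shared by the IL-6 family, had 1254 ± 15.2 (SD, n = 3) and 1259 ± 62.1 (SD, n = 3) normalized counts, a log2 fold change of 0.0040.

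None of the Janus kinase genes was called. In limma 0 of 4 passed the adjusted threshold and 1, Jak3, had an unadjusted p below 0.05, and edgeR and DESeq2 called 0. Among all genes tested 23.7% passed in limma, and 4 genes are too few to tell 0 from that share. Jak3, the partner of the common gamma chain, had means of 2190 ± 41.6 in WT and 2374 ± 61.6 in Irf1-/- cells (normalized counts, SD, n = 3 each), with no overlap. Log2 fold changes of Jak1, Jak2, Jak3 and Tyk2 were 0.11, 0.05, 0.12 and 0.01.

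Among 16 inhibitors of STAT signalling, 3 were lower and 2 higher, with a median of 0.0038. This is 31.25% called, near the 23.7% of all genes tested. Socs3, which blocks receptor signalling to STAT3 and is itself a STAT3 target, had 171, 198 and 197 normalized counts in WT replicates 1 to 3 and 450, 549 and 387 in Irf1-/- replicates 1 to 3. Its lowest Irf1-/- library was well above its highest WT library (log2 fold change 1.28, standard error 0.124, adjusted p = 7.21e-05 in limma), whereas Stat3 was lower in the same cells. The phosphatase genes Ptpn11 and Ptpn6 were lower at -0.39 and -0.37, and were still called with the Y-linked covariate (adjusted p = 0.00574 and 0.0186 in limma). In the 4 libraries with Xist they were at -0.29 and -0.25 and were not called (adjusted p = 0.0614 and 0.122 in limma). Pias2, an inhibitor of the PIAS family, was lower at -0.28 and Socs2, a STAT5-induced inhibitor, higher at 0.25, and neither was called in the 4 libraries with Xist (-0.27 and 0.16, adjusted p = 0.2 and 0.468 in limma). Socs1 and Cish, inhibitors of the IFN-γ and IL-2 pathways, were at 0.08 and 0.09 and did not pass the threshold.

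Of 10 tested STAT3 targets, 5 were called higher and 1 lower, and the median was 0.34. Maf, a transcription factor of IL-10-producing and Th17 cells, had 79.9, 61.3 and 54.1 normalized counts in WT replicates 1 to 3 and 393, 322 and 263 in Irf1-/- replicates 1 to 3. The log2 fold change was 2.31 (adjusted p = 1.52e-05 in limma). Fosl2, which encodes an AP-1 factor, rose at a log2 fold change of 1.04, to 156 ± 24.8 (SD, n = 3) normalized counts. Rora at 0.60 and Batf at 0.38 were also called higher, and in the 4 libraries with Xist they kept values of 0.54 and 0.35 without a call (adjusted p = 0.0713 and 0.112 in limma). Bcl6, the factor of follicular helper T cells, was lower at -0.80 (adjusted p = 0.0128 in limma), but was at -0.38 with the Y-linked covariate and -0.35 in the 4 libraries with Xist, where it was not called (adjusted p = 0.139 and 0.371 in limma).

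Of 9 tested STAT4 targets, 3 were higher and 2 lower, with a median of 0.19. Il18r1, a chain of the IL-18 receptor, rose from 14.5 ± 5.73 (SD, n = 3) to 51.9 ± 4.62 (SD, n = 3), and Furin, a protease that processes pro-TGF-β, from 3438 ± 368 (SD, n = 3) to 5637 ± 189 (SD, n = 3). Gadd45b, a stress response gene, fell from 930 ± 34.1 (SD, n = 3) to 674 ± 27.5 (SD, n = 3). Gadd45g was higher at 0.75 and Tbx21, which encodes the Th1 factor T-bet, lower at -0.36 (adjusted p = 0.00662 and 0.0108 in limma). In the 4 libraries with Xist these were 0.70 and -0.17 and were not called (adjusted p = 0.075 and 0.334 in limma), and Tbx21 was not called with the Y-linked covariate either (-0.19, adjusted p = 0.109 in limma). Ifng stood at 9.71 to 30.1 normalized counts in all libraries and did not pass the threshold. For T-bet, and also for BATF and GATA-3, the paper reports no significant change of expression without IRF1 in Th9 cells.

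STAT5 targets were split between the directions, with 5 of 14 higher, 3 lower and a median of 0.14. Foxp3, the factor of regulatory T cells, rose from 182 ± 8.99 (SD, n = 3) to 337 ± 5.91 (SD, n = 3) (log2 fold change 0.89, adjusted p = 5.80e-05 in limma), and Lta, which encodes lymphotoxin alpha, from 5945 ± 887 (SD, n = 3) to 9848 ± 242 (SD, n = 3). The survival gene Bcl2 was higher at 0.66, whereas the survival gene Bcl2l1 was lower at -0.21. The cyclin genes differed in the same way, with Ccnd3 higher at 0.18 and Ccnd2 lower at -0.22. None of these 4 calls held in the 4 libraries with Xist, where Bcl2 was at 0.34 and Bcl2l1 at -0.14 (adjusted p = 0.073 and 0.388 in limma) and Ccnd3 at 0.20 and Ccnd2 at -0.28 (adjusted p = 0.199 and 0.0785 in limma). Prdm1, which encodes Blimp-1, was lower at -1.33 from a level of 14.7 ± 3.61 (SD, n = 3) in WT cells, and stood at -1.55 with the Y-linked covariate, without a call (adjusted p = 0.0715 in limma). Il2ra, the high-affinity chain of the IL-2 receptor, had 11414 and 12878 normalized counts on average and did not pass the threshold (adjusted p = 0.228 in limma).

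Of 9 tested STAT6 targets, 3 were higher and 2 lower, with a median of 0.15. Il4 had 32.4, 38.5 and 67.6 normalized counts in WT replicates 1 to 3 and 11.9, 8.32 and 7.67 in Irf1-/- replicates 1 to 3, a log2 fold change of -2.15 (adjusted p = 0.00113 in limma). These are transcripts of the cells themselves and not the IL-4 of the medium. Nfil3, a basic leucine zipper factor induced by IL-4, rose from 203 ± 69.3 (SD, n = 3) to 465 ± 80.0 (SD, n = 3), and Il24 and Il4ra were also higher, at 1.04 and 0.77. In the 4 libraries with Xist, Nfil3 was at 0.70 against 1.23 in all libraries and still called (adjusted p = 0.0322 in limma). Il24 was at 0.41 with the Y-linked covariate and 0.33 in those 4 libraries, with no call in either (adjusted p = 0.139 and 0.371 in limma). Gata3, the Th2 master factor, and Irf4, a factor needed for Il9, had log2 fold changes of 0.06 and 0.23 and did not pass the threshold (adjusted p = 0.769 and 0.0602 in limma).

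**Figure D5:**
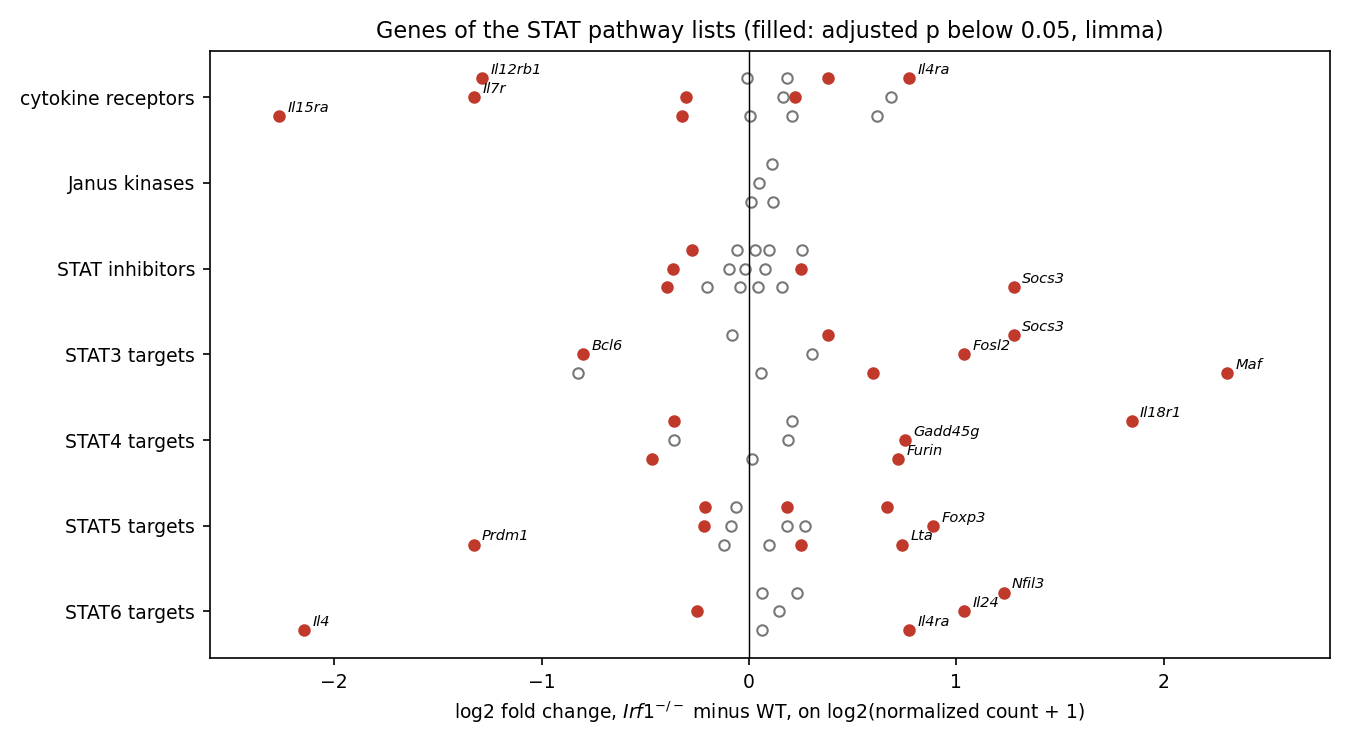
Log2 fold change of Irf1-/- against WT (horizontal axis) for the tested genes of each list (rows), filled where the adjusted p in limma was below 0.05 and named where the size was above 0.7. Points are offset vertically for legibility, and genes of 2 lists appear in both, such as Socs3 and Il4ra. The Janus kinases lie between 0.01 and 0.12, and Il15ra, Il4 and Maf lie farthest from 0.

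The calls of 12 pathway genes were lost when 1 library was left out. The highest adjusted p in limma among these fits was 0.115 for Il2rb, 0.116 for Il27ra and 0.124 for Bcl2l1, all without WT replicate 1. Without WT replicate 2 it was 0.0615 for Bcl6, 0.0562 for Tbx21, 0.07 for Il24 and 0.122 for Ccr8, a chemokine receptor of Th2 cells that was lower at -0.25 and stood at -0.08 in the 4 libraries with Xist (adjusted p = 0.599 in limma). It was 0.164 for Socs2 without Irf1-/- replicate 1, and without Irf1-/- replicate 2 it was 0.0677 for Pias2, 0.101 for Ccnd2 and 0.0883 for Ccnd3. Without Irf1-/- replicate 3 it was 0.0847 for Prdm1.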

How the data were processed

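Poly(A) RNA of 6 cultures was sequenced as single-end reads. The authors used STAR 2.4.0b on GRCm38, featureCounts on the Ensembl annotation and DESeq2 1.12.3. The deposited signal is a count normalized by the library's size factor, and whole reads could be recovered from 100% of its values above 0. Use of strand and the treatment of reads matching several genes are not given in the sources used here.

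Of 41388 genes, 40254 were matched to a symbol, and 11379 with a mean of at least 10 entered limma 3.58.1 under R 4.3.3 (eBayes with trend on log2 values after adding 1, Benjamini-Hochberg adjustment, threshold 0.05), after a test on simulated data. Fold changes are therefore on that log2 scale and understate those of low genes. Levels and ratios were tested by exact permutation. The named genes were the members, Stat2, genes of the 7 pathway lists with called genes first, and the 3 genes most correlated with each member. A further gene that this rule names is not reported here. Genes on chromosome 11 beside the members, and uncalled pathway genes named for comparison, were chosen after their values were seen. The members and lists were chosen with earlier results of these data known. The settings varied were the pseudocount (0.1 or 10), the filter (none or 50), the scaling (quantile or TMM), the trend (none) and a replicate block, along with edgeR 4.0.16, DESeq2 1.42.0, each library left out, a Y-linked covariate, the 4 libraries with Xist and the libraries split by size.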

Additional observations from a re-analysis of the deposited data

How the results depend on the processing

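The log2 fold change of Stat3 kept its direction in all 20 alternatives and its call in the 19 with a test. That of Stat5a kept its direction and was no longer called with no trend (-0.22, adjusted p = 0.0553 in limma) and in the 4 libraries with Xist (-0.18), with a range of -0.23 to -0.20 when 1 library was left out. Stat4, Stat5b and Stat6 were called in no setting, and their signs turned. Stat4 was -0.00087 with quantile normalization, -0.30 with the Y-linked covariate and -0.32 in the 4 libraries with Xist, and ranged from -0.17 to 0.24 with 1 library left out. Stat5b was -0.015 with the Y-linked covariate, -0.0096 in the 4 libraries with Xist and -0.013 in the 4 smaller libraries, and ranged from -0.038 to 0.045 with 1 library left out. Stat6 was 0.0045 with quantile normalization. The cause was not tested.

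Of the members, 1 was called with no trend and in the 4 libraries with Xist, and 1 to 2 with 1 library left out. Lower pathway genes numbered 9 with no trend, 10 with the Y-linked covariate and 5 in the 4 libraries with Xist, with 9 to 17 when 1 library was left out, and higher ones 9 in the 4 libraries with Xist. Over all genes, 807 were lower with no trend and 403 in the 4 libraries with Xist, and 824 to 1471 with 1 library left out. Higher genes numbered 856 with the Y-linked covariate, 407 in the 4 libraries with Xist and 805 to 1380 with 1 library left out. The fits on 4 libraries rest on fewer samples, and a lone WT sample is assumed there to vary like the other group. The fit with the Y-linked covariate also rests mostly on the WT sample with Xist.

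With a replicate block, 2116 genes were lower and 1893 higher. Stat3 and Stat5a kept their values and calls (adjusted p = 0.0009 for Stat5a in limma), and Stat2 was called at 0.28. The numbers mark no shared animal in the labels, and the deviations of same-numbered libraries correlated by 0.0922, 0.269 and 0.321, the first under 0.1, although every library correlated best with its own number.

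Lengths of the longest transcript and of exons without shared bases were chosen after seeing the data. Per kb of coding sequence, the log2 ratio of Stat5a to Stat5b was 0.43 and passed, and that of Stat6 to Stat3 was -0.70. Per kb of the longest transcript, Stat5b to Stat6 was 0.10, Stat6 to Stat3 0.10 and Stat3 to Stat4 3.32, none below an adjusted p of 0.05. With 5 libraries the smallest exact sign-flip p exceeds that threshold.

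Differences in log2 ratio that changed sign all held Stat4. Stat4 to Stat5b ranged from -0.15 to 0.22 and Stat4 to Stat6 from -0.11 to 0.31 with 1 library left out. In the 4 libraries with Xist, Stat4 to Stat5a was -0.14, Stat4 to Stat5b -0.32 and Stat4 to Stat6 -0.29, while Stat3 to Stat5a was -0.30 and Stat3 to Stat6 -0.45. Stat4 had the fewest reads of the members, at most 388 in a library.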
